A study of Homo sapiens with 15 samples.

Results

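The SOX9 mutant M379 was compared with wild-type SOX9 in HT115, an established line of human colorectal cancer cells, by poly(A)-selected RNA sequencing. The members are the 3 M379 and the 3 SOX9_WT libraries out of 15 in the series, chosen by their labels, and the 16160 of 60671 counted genes that passed an expression filter. The M379 cells made a V5-tagged SOX9 mutant, and the labels do not say what its name denotes. The other groups made the SOX9 mutants M228 or M303 (a truncated SOX9, per the series text), V5-tagged wild-type SOX9 (SOX9_WT) or, as the control, GFP. Each group has 3 libraries, and all 15 libraries come from cells given 0.5 µg/ml doxycycline for 24 h, which switches the introduced gene on. The series text speaks of duplicates where the labels list 3 libraries a group. No label says that these came from separate cultures, so a p-value here measures the spread between libraries, which may be technical. HT115 cells keep a SOX9 gene of their own, and reads of that gene and of the introduced one are counted together.

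SOX9 is a transcription factor of the SOX family, which binds DNA through a high-mobility-group domain at short sequences related to AACAAT and ACAAAG. In cartilage it works with SOX5 and SOX6 to switch on collagen genes. In the intestine it is made at the crypt base, is itself a target of WNT signalling and is needed in mice for Paneth cells. Its mutation is frequent in colorectal cancer.

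Total counts lay between 14381665 and 17112863 reads in M379 libraries and between 10784506 and 19781935 in SOX9_WT libraries, and GFP replicate 1 was the shallowest of the series at 3054755 reads. The level of 3 reads, up to which a gene with no read could still be present, came to between 0.175 and 0.209 CPM (counts per library scaled to a total of 1e6) in M379 libraries and between 0.152 and 0.278 CPM in SOX9_WT libraries, and this covers counting error only. The median dispersion, a measure of the spread between libraries of 1 group, was 0.0155 in M379, 0.0104 in SOX9_WT and 0.0976 in GFP. Markers of intestinal epithelium were summed to between 13050 and 18200 CPM in M379 and between 12780 and 16960 CPM in SOX9_WT, and all 10 were detected. The 10 fibroblast markers summed to between 4.04 and 4.87 CPM in M379 and between 3.92 and 4.89 CPM in SOX9_WT, with 4 at 0 in all 6 libraries, and the 8 endothelial markers to between 5.07 and 7.32 CPM in M379 and between 5.63 and 6.78 CPM in SOX9_WT, with 1 at 0. The 10 immune markers summed to between 1021 and 1441 CPM in M379 and between 2568 and 3544 CPM in SOX9_WT, nearly all of it LYZ, and 2 were at 0. The 7 keratinocyte markers summed to between 71.5 and 81.0 CPM in M379 and between 54.6 and 56.9 CPM in SOX9_WT, with DSG3 the highest and 2 at 0. The part of these markers in the results was not tested.

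SOX9 (ENSG00000125398, GRCh38 chromosome 17, 72121020 to 72126416, plus strand) was measured first, since it checks the labels. It stood at 2034, 2329 and 2282 CPM in M379 libraries 1, 2 and 3, against 243, 210 and 186 CPM in SOX9_WT libraries. The GFP libraries held 97.6, 100.8 and 158 CPM, below all 3 SOX9_WT libraries, and the M228 and M303 libraries held from 1900 to 2383 CPM and from 2949 to 3039 CPM. SOX9 was thus 3.38 ± 0.19 log2 units higher in M379 than in SOX9_WT (edgeR adjusted p = 2.04e-07), and it was called in each of the 6 fits that left out 1 library of these groups. The M379 libraries therefore also held far more reads of the annotated SOX9 gene than the SOX9_WT libraries. How fully the introduced genes align to it was not tested. The effects of the changed protein and of the SOX9 level cannot be told apart here.

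Across the 16160 genes, 20 were called at an adjusted p under 0.05 by edgeR's quasi-likelihood test, which is 0.124% of those tested. They are 10 genes that rose and 10 that fell in M379 relative to SOX9_WT, 0.0619% each. At an unadjusted p under 0.05 there were 759 genes, 4.7% of all tested. The M379 libraries lay above all SOX9_WT libraries for 1575 genes (9.75%) and below them for 1532 genes (9.48%). The 20 calls depend on libraries outside the comparison and on single libraries within it. With the GFP libraries left out of the fit 100 genes were called (0.619%), 33 higher (0.204%) and 67 lower (0.415%) in M379. With the 2 groups fitted alone there were 165 (1.02%), 55 higher (0.34%) and 110 lower (0.681%), and both sets hold all 20. Without GFP library 2 alone, an alternative chosen after seeing the data, 89 were called. Leaving out M379 library 1, 2 or 3 left 5, 3 and 1 calls, and leaving out SOX9_WT library 1, 2 or 3 left 2, 1 and 2. The 19 called genes other than SOX9 kept their sign in every fit. That was nearly fixed beforehand, since the 2 groups did not overlap for any of them. Of the 19, 13 were called in none of the 6 fits with 1 library of the pair left out.

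**Figure D1:**
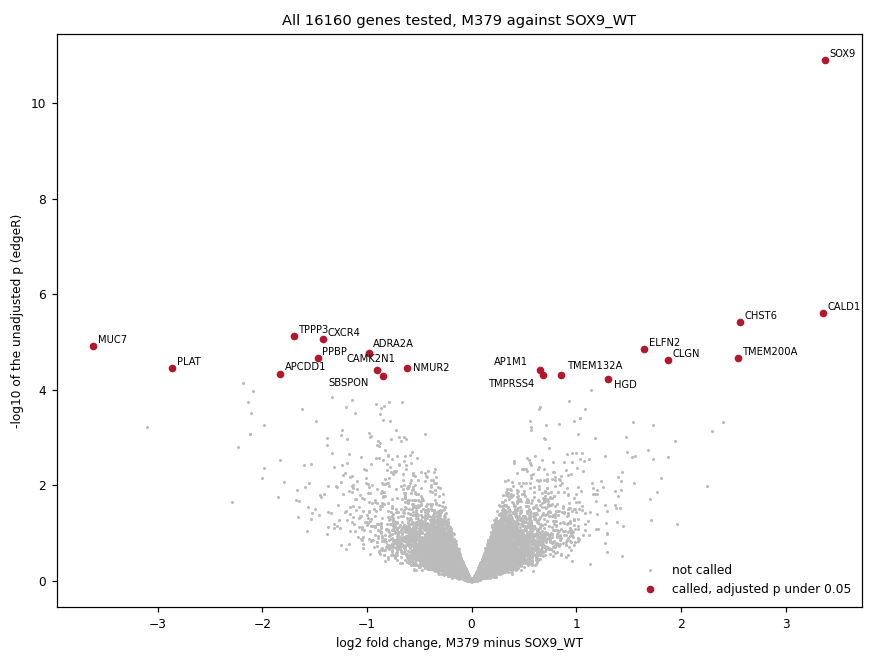
Each point is 1 of the 16160 genes tested. The horizontal axis gives the log2 fold change of M379 minus SOX9_WT and the vertical axis the −log10 of the unadjusted edgeR p, so the 20 called genes (red) form the upper edge, with SOX9 at 3.38 far above the rest and MUC7 at −3.61 as the lowest fold change among the called genes.

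**Figure D2:**
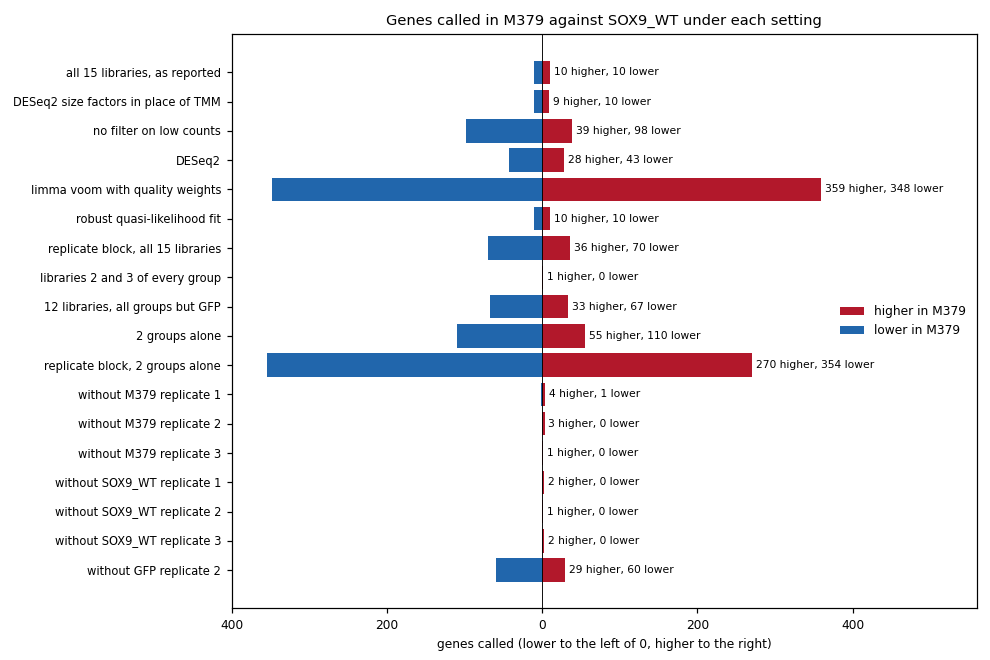
Bars give the number of genes called for M379 against SOX9_WT under each setting, higher in M379 to the right of 0 and lower to the left. Counts run from 1, with 1 library left out or with libraries 2 and 3 of every group, to 707 with limma-voom and library quality weights, beside the 20 reported.

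Apart from SOX9, the genes that rose with the largest fold changes were of low level. CALD1 (ENSG00000122786), which encodes caldesmon, a protein that binds actin and myosin in smooth muscle and in other cells, stood at 3.96, 3.51 and 5.65 CPM in M379 libraries, against 0.778, 0.136 and 0.191 CPM in SOX9_WT libraries. The groups did not overlap, and the log2 fold change was 3.36 ± 0.46 (edgeR adjusted p = 0.0195). SOX9_WT libraries 2 and 3 held 2 reads each, and without SOX9_WT library 1, which held 16, the log2 fold change was 4.72. CALD1 was called in 3 of the 6 fits with 1 library left out. The M379 libraries together held 208 CALD1 reads and the SOX9_WT libraries 20, a ratio of 10.1 after scaling (exact 95% interval 6.38 to 16.9, counting error only). In bulk libraries, fewer cells that make a gene and less of its RNA per cell cannot be told apart. CHST6 (ENSG00000183196), a sulfotransferase that adds sulfate to keratan sulfate, was at 2.01, 2.27 and 2.67 CPM in M379 libraries, against 0.535, 0.271 and 0.287 CPM in SOX9_WT libraries. It rose by 2.57 ± 0.37 log2 units (edgeR adjusted p = 0.0201), and 6.65% of its exon bases are shared with another gene. TMEM200A (ENSG00000164484), a transmembrane protein, was at 4.23, 2.99 and 3.69 CPM in M379 libraries, against 0.389, 0.339 and 1.34 CPM in SOX9_WT libraries. Its SOX9_WT library 3 was the highest of that group and still lay below all M379 libraries, and the log2 fold change was 2.54 ± 0.42 (edgeR adjusted p = 0.0346). Without that library it was 3.28, and TMEM200A was called in 1 of the 6 fits with 1 library left out.

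CLGN (ENSG00000153132), encoding calmegin, a chaperone of the endoplasmic reticulum known from sperm development in mice, was at 3.09, 2.73 and 4.10 CPM in M379 libraries, against 0.924, 0.814 and 0.955 CPM in SOX9_WT libraries. The SOX9_WT libraries lay close together, and the log2 fold change was 1.88 ± 0.32 (edgeR adjusted p = 0.0350). ELFN2 (ENSG00000166897), a leucine-rich repeat membrane protein of synapses, was at 5.84, 2.99 and 4.70 CPM in M379 libraries, against 1.31, 1.97 and 0.955 CPM in SOX9_WT libraries. It rose by 1.65 ± 0.26 log2 units (edgeR adjusted p = 0.0328), and 12% of its exon bases overlap another gene. HGD (ENSG00000113924), homogentisate dioxygenase of tyrosine breakdown, was at 4.23, 8.05 and 6.48 CPM in M379 libraries, against 2.14, 3.19 and 2.29 CPM in SOX9_WT libraries. Its M379 libraries were the more spread, and the log2 fold change was 1.30 ± 0.24 (edgeR adjusted p = 0.0479).

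The 3 remaining genes that rose were of middle level and changed less. TMPRSS4 (ENSG00000137648), a serine protease of the cell surface, was at 96.5, 102 and 111 CPM in M379 libraries, against 66.8, 63.3 and 62.9 CPM in SOX9_WT libraries, a log2 fold change of 0.68 ± 0.12 (edgeR adjusted p = 0.0436). AP1M1 (ENSG00000072958), the medium subunit of the clathrin adaptor AP-1, which sorts cargo between the trans-Golgi network and endosomes, was at 39.4, 43.5 and 46.4 CPM in M379 libraries, against 27.5, 25.7 and 29.0 CPM in SOX9_WT libraries, a log2 fold change of 0.65 ± 0.11 (edgeR adjusted p = 0.0412). TMEM132A (ENSG00000006118), a membrane protein, was at 18.1, 19.2 and 17.1 CPM in M379 libraries, against 11.2, 8.75 and 10.1 CPM in SOX9_WT libraries, a log2 fold change of 0.85 ± 0.15 (edgeR adjusted p = 0.0436). In none of the 3 did the groups overlap.

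Of the 10 genes that fell, 3 encode cell-surface receptors. CXCR4 (ENSG00000121966), the receptor of the chemokine CXCL12, which guides cell migration, was at 2.75, 2.73 and 2.44 CPM in M379 libraries, against 8.03, 6.92 and 6.21 CPM in SOX9_WT libraries. The log2 fold change was −1.42 ± 0.22 (edgeR adjusted p = 0.0272). ADRA2A (ENSG00000150594), the alpha-2A adrenergic receptor, which lowers cyclic AMP, was at 21.3, 20.7 and 21.9 CPM in M379 libraries, against 44.9, 45.2 and 36.0 CPM in SOX9_WT libraries, a log2 fold change of −0.98 ± 0.16 (edgeR adjusted p = 0.0346). NMUR2 (ENSG00000132911), a receptor of the peptide neuromedin U, was at 40.2, 36.4 and 37.6 CPM in M379 libraries, against 54.2, 63.8 and 57.8 CPM in SOX9_WT libraries, a log2 fold change of −0.62 ± 0.11 (edgeR adjusted p = 0.0412). All 3 receptors were lower in each M379 library than in any SOX9_WT library.

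Another 5 genes that fell encode secreted or surface proteins. MUC7 (ENSG00000171195), a small secreted mucin best known from saliva, had 1, 2 and 1 reads in M379 libraries, against 24, 18 and 10 reads in SOX9_WT libraries, so each M379 library was under the level of 3 reads. On the pooled reads its M379 level was 0.0747 of that in SOX9_WT (exact 95% interval 0.0196 to 0.203, counting error only), and the fitted log2 fold change was −3.61 ± 0.57 (edgeR adjusted p = 0.0328). PLAT (ENSG00000104368), tissue plasminogen activator, had 4, 3 and 3 reads in M379 libraries, against 48, 19 and 10 reads in SOX9_WT libraries. The ratio of the levels was 0.126 (exact 95% interval 0.0582 to 0.245), and the fitted log2 fold change was −2.86 ± 0.50 (edgeR adjusted p = 0.0412). The fitted folds of both genes depend on the prior count of the fit. Both genes passed the expression filter through the SOX9_WT libraries alone, so their direction was set by the filter. Their p-values and intervals are therefore no independent support for a fall.

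PPBP (ENSG00000163736), a CXC chemokine precursor known from platelets, was at 24.7, 15.1 and 16.1 CPM in M379 libraries, against 54.2, 52.2 and 48.0 CPM in SOX9_WT libraries, a log2 fold change of −1.47 ± 0.24 (edgeR adjusted p = 0.0346). APCDD1 (ENSG00000154856), an inhibitor of WNT signalling at the cell surface that is itself a WNT target, was at 3.76, 2.27 and 3.03 CPM in M379 libraries, against 13.9, 7.60 and 10.6 CPM in SOX9_WT libraries, a log2 fold change of −1.83 ± 0.33 (edgeR adjusted p = 0.0436). The groups were apart for both genes, with SOX9_WT the more spread for APCDD1 and M379 for PPBP. SBSPON (ENSG00000164764), a protein with somatomedin B and thrombospondin domains, was at 27.4, 24.8 and 28.3 CPM in M379 libraries, against 54.2, 51.8 and 38.1 CPM in SOX9_WT libraries, a log2 fold change of −0.84 ± 0.15 (edgeR adjusted p = 0.0442).

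The last pair of genes that fell act inside the cell. TPPP3 (ENSG00000159713), of a family that binds and bundles microtubules, was at 2.48, 2.66 and 1.90 CPM in M379 libraries, against 7.93, 6.58 and 8.41 CPM in SOX9_WT libraries, a log2 fold change of −1.70 ± 0.26 (edgeR adjusted p = 0.0272). CAMK2N1 (ENSG00000162545), an inhibitor of the calcium/calmodulin-dependent kinase CaMKII, was at 10.5, 9.48 and 9.87 CPM in M379 libraries, against 18.4, 19.1 and 18.5 CPM in SOX9_WT libraries, a log2 fold change of −0.91 ± 0.16 (edgeR adjusted p = 0.0412). For CAMK2N1 both groups were tight, and no M379 library reached the level of any SOX9_WT library for either gene.

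**Figure D3:**
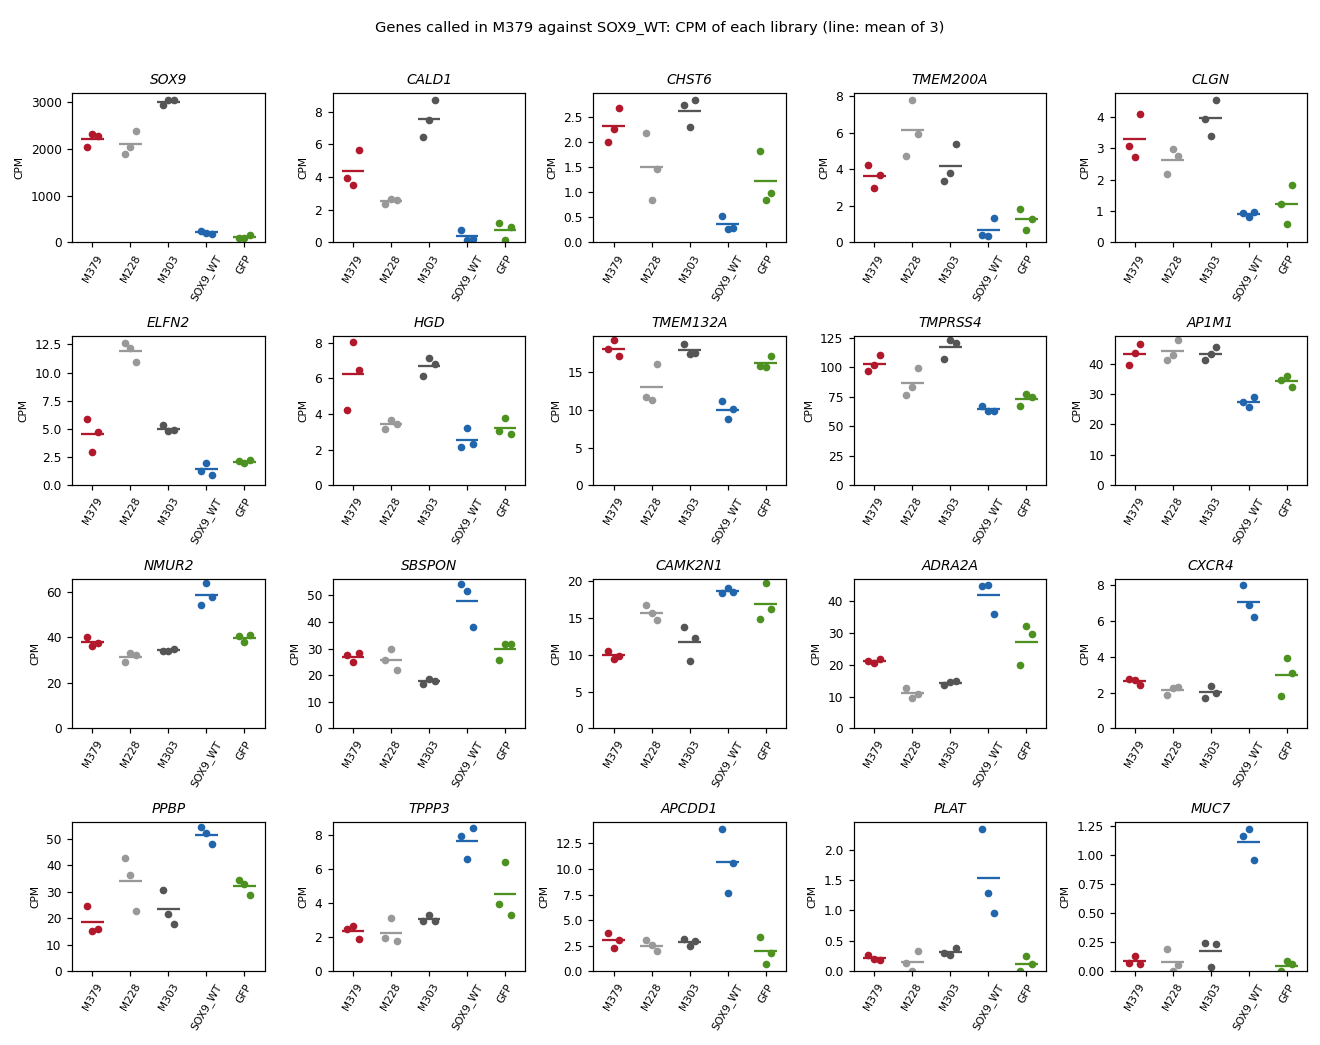
One panel for each of the 20 called genes, with CPM on the vertical axis starting at 0, 3 points for the 3 libraries of each group and a line at their mean. In every panel the 3 M379 points (red) and the 3 SOX9_WT points (blue) do not overlap. SOX9 lies between 2034 and 2329 CPM in M379 and between 186 and 243 CPM in SOX9_WT.

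Sequences before the transcription starts of 5 called genes are shown because SOX9 acts by binding DNA near genes. They are the 250 bases before an annotated start in RefSeq, build GRCh38.p14, read 5′ to 3′ on the gene's own strand. Capitals mark AACAAT or ACAAAG, the SOX core sequences searched on both strands, so CTTTGT is ACAAAG on the other strand. TMEM200A and CALD1 rose in M379 relative to SOX9_WT, while MUC7, APCDD1 and CXCR4 fell.
TMEM200A, chr6:130365767-130366016, plus strand: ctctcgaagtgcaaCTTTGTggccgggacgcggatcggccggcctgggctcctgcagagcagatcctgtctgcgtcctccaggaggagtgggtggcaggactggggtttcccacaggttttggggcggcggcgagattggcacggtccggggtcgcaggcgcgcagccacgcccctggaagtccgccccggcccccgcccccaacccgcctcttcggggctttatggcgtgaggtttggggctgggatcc
CALD1, chr7:134891208-134891457, plus strand: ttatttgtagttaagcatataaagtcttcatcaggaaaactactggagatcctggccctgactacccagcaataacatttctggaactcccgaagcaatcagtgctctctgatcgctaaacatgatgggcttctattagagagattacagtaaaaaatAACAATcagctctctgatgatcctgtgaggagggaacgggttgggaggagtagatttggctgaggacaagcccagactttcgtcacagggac
MUC7, chr4:70430242-70430491, plus strand: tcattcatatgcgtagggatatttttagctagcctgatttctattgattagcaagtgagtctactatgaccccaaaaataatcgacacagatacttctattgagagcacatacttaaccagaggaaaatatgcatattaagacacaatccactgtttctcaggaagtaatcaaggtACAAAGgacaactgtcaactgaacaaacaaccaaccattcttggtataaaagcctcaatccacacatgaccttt
APCDD1, chr18:10454385-10454634, plus strand: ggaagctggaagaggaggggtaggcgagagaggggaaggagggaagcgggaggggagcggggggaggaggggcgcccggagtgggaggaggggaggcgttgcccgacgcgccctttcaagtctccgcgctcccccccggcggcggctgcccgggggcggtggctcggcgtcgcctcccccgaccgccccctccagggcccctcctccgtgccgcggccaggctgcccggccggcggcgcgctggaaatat
CXCR4, chr2:136118150-136118399, minus strand: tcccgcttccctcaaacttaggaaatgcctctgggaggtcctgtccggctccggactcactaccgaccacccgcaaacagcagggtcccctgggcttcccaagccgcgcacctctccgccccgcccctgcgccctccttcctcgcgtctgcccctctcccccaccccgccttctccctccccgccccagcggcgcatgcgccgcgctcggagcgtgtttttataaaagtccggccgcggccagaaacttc

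The table of promoters held 18 such windows for 11 of the called genes. AACAAT was in 1 of the 18 windows, for CALD1, against 8.98% of the 35116 windows of the same length over all genes. ACAAAG was in 6 of the 18, for CALD1, CXCR4, MUC7 and TMEM200A, against 13.7% of all windows. CALD1, CXCR4 and MUC7 each have several windows, so windows are not independent. By gene, 4 of the 11 held ACAAAG in any window, against 16.3% of all genes, and 1 held AACAAT, against 10.9%. This is not a like comparison, since a gene with more windows has more chances of a match. The called genes had 18 windows for 11 genes, and all genes 35116 for 27305. ATCAAAG, the core sequence of the WNT factors TCF and LEF, which shares the letters CAAAG with ACAAAG but holds neither SOX sequence, was in 0 of the 18 windows, against 2.26% of all. Of the windows printed, that of TMEM200A holds ACAAAG at 236 bases before the start on the other strand, that of MUC7 holds it at 74 bases and that of CALD1 holds AACAAT at 92 bases. The windows of APCDD1 and CXCR4 printed here hold none of these letters, while 2 other CXCR4 windows do. The CALD1 window lies before an inner start of the gene. A match describes the letters only.

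The other groups place these values. They share the M379 libraries with the main comparison, so their folds are not independent of it. For the receptors and for SBSPON the M379 libraries overlapped the GFP libraries. CXCR4 was at 1.82, 3.92 and 3.12 CPM in GFP, ADRA2A at 20.1, 32.2 and 29.7 CPM, NMUR2 at 40.5, 37.9 and 41.1 CPM and SBSPON at 25.9, 31.7 and 31.6 CPM. APCDD1, at 3.35, 0.681 and 1.77 CPM in GFP, MUC7 with 0, 0.0852 and 0.0612 CPM and PLAT with 0, 0.256 and 0.122 CPM also overlapped the M379 libraries. For these 7 genes every SOX9_WT library stood above every M379 and every GFP library. CAMK2N1, at 14.9, 19.8 and 16.3 CPM in GFP, PPBP, at 34.4, 32.9 and 28.7 CPM, and TPPP3, at 3.95, 6.39 and 3.30 CPM, were lower in every M379 library than in any GFP library, but none of the 3 was called for M379 against GFP (edgeR adjusted p from 0.164 to 0.549). For every gene that fell, each SOX9_WT library also stood above each M228 and M303 library, so the falls are not particular to M379. CXCR4 was at 1.86, 2.26 and 2.32 CPM in M228 and 1.70, 2.35 and 1.99 CPM in M303. ADRA2A, at 12.7, 9.60 and 10.7 CPM in M228 and 13.6, 14.7 and 14.8 CPM in M303, lay below every M379 library.

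Among the genes that rose, TMEM132A was at 15.8, 15.7 and 17.2 CPM in GFP and overlapped M379, so SOX9_WT was the low group. CHST6 was at 1.82, 0.852 and 0.979 CPM in GFP, between M379 and SOX9_WT. CALD1 was at 1.22, 0.170 and 0.918 CPM and TMEM200A at 1.82, 0.681 and 1.28 CPM in GFP, below every M379 library and overlapping SOX9_WT. Of these genes only SOX9 was also called for M379 against GFP. CALD1 was at 6.45, 7.51 and 8.68 CPM in M303, above every M379 library, while CHST6, at 2.75, 2.31 and 2.85 CPM in M303, overlapped M379. ELFN2 set M228 apart, with 12.6, 12.1 and 11 CPM, above all M379 libraries. For every gene that rose except HGD, each M228 and M303 library stood above each SOX9_WT library. HGD did so in M303 and overlapped SOX9_WT in M228.

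The tests of M379 against the other groups called few genes. Against GFP there were 6, all higher in M379, 0.0371% of those tested: SOX9, COL9A3, SPINK5, CTSV, SHROOM4 and ARHGEF37. With the replicate number as a block over all 15 libraries 17 were called, 15 higher and 2 lower. That fit also pairs the SOX9_WT libraries, for which the rule on pairing given below did not hold. The rule held for M379 and GFP, and the block with these 2 groups alone called 1. COL9A3, a chain of cartilage collagen IX, was at 11.6, 16.2 and 21.7 CPM in M379, against 1.52, 3.07 and 1.96 CPM in GFP, a log2 fold change of 2.83 ± 0.36 (edgeR adjusted p = 0.00725). In SOX9_WT it was at 12.7, 5.90 and 5.64 CPM, and the M379 libraries overlapped that range, with a log2 fold change of 1.00 ± 0.30 (edgeR adjusted p = 0.483). SPINK5, a serine protease inhibitor, was at 8.86, 12.9 and 11.4 CPM in M379, against 1.52, 2.64 and 3.86 CPM in GFP, a log2 fold change of 1.89 ± 0.26 (edgeR adjusted p = 0.0104). CTSV, a lysosomal cysteine protease, was at 11.3, 11.3 and 10.9 CPM in M379, against 2.13, 5.11 and 5.51 CPM in GFP, a log2 fold change of 1.26 ± 0.20 (edgeR adjusted p = 0.0487). SHROOM4, which binds actin, and ARHGEF37 had log2 fold changes of 1.44 and 0.92. The M379 libraries were above all GFP libraries for each of the 6.

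Against M228, 7 genes were called (0.0433%), and 25 with the replicate number as a block over all 15 libraries, 5 higher and 20 lower in M379. The block with these 2 groups alone called 1013. COL9A3 alone was higher in M379 (0.00619% of genes), at the values above, against 3.14, 3.11 and 3.5 CPM in M228, a log2 fold change of 2.33 ± 0.33 (edgeR adjusted p = 0.0133). PKIB, an inhibitor of protein kinase A, was at 21.8, 24.2 and 21 CPM in M379, against 48.9, 62.0 and 46.4 CPM in M228, a log2 fold change of −1.23 ± 0.15 (edgeR adjusted p = 0.00644). NTN4 (netrin 4), EHD2 (a membrane-remodelling ATPase of caveolae), SERPINE2 (a protease inhibitor) and ELFN2 were also lower in M379, with log2 fold changes of −2.04, −1.22, −1.02 and −1.40. Without M379 library 3 none of the 7 was called.

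Against M303, edgeR called 0 genes (0%), DESeq2 0 and limma-voom with quality weights 1, and 137 genes had an unadjusted p under 0.05. With the replicate number as a block 0 genes were called over all 15 libraries and 25 with these 2 groups alone, 8 higher and 17 lower in M379. SOX9 itself was lower in every M379 library than in any M303 library. A count of 0 does not show that M379 and M303 act alike.

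With M379 and SOX9_WT fitted alone, so that the spread between GFP libraries played no part, further genes were called, and the 5 highest and 5 lowest fold changes among those with a mean of at least 1 log2 CPM and no overlap are described. MUC17, a membrane mucin of the enterocyte surface, was at 36.5, 31.8 and 36.5 CPM in M379 libraries, against 128, 213 and 122 CPM in SOX9_WT libraries, a log2 fold change of −2.14 (edgeR adjusted p = 0.102 over all 15 libraries and 2.06e-04 with 2 groups). SOX6, a SOX factor that works with SOX9 in cartilage, was at 2.01, 0.779 and 0.951 CPM in M379 libraries, against 9.05, 4.48 and 3.06 CPM in SOX9_WT libraries, a log2 fold change of −2.18 (edgeR adjusted p = 0.0547 over all and 0.0252 with 2 groups). GFP held 1.22, 0.596 and 1.28 CPM of SOX6, overlapping the M379 libraries. NTRK2, the receptor of the growth factor BDNF, was at 4.36, 2.86 and 2.50 CPM in M379 libraries, against 21, 10.7 and 9.36 CPM in SOX9_WT libraries (edgeR adjusted p = 0.0723 over all and 0.00699 with 2 groups). SLC26A3, the chloride/bicarbonate exchanger of colonocytes, was at 6.58, 3.25 and 2.26 CPM in M379 libraries, against 18.9, 14.4 and 7.93 CPM in SOX9_WT libraries (edgeR adjusted p = 0.628 over all and 0.0280 with 2 groups). LRRC32, which holds latent TGF-beta at the cell surface, was at 5.84, 2.99 and 1.67 CPM in M379 libraries, against 14.6, 10.4 and 7.93 CPM in SOX9_WT libraries (edgeR adjusted p = 0.700 over all and 0.0343 with 2 groups). For all but MUC17, library 1 was the highest of both groups.

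The 5 with higher values in M379 include surface proteins and a binding protein of insulin-like growth factors. CD109, which binds TGF-beta, was at 8.86, 6.56 and 9.45 CPM in M379 libraries, against 3.75, 2.24 and 2.87 CPM in SOX9_WT libraries (edgeR adjusted p = 0.221 over all and 0.00832 with 2 groups). PCBP4, an RNA-binding protein, was at 21.1, 26.0 and 26.6 CPM in M379 libraries, against 10.6, 11.1 and 11.8 CPM in SOX9_WT libraries (edgeR adjusted p = 0.0723 over all and 0.00179 with 2 groups). IGFBP2 was at 5.24, 8.64 and 12.1 CPM in M379 libraries, against 3.45, 2.31 and 2.20 CPM in SOX9_WT libraries, the widest M379 spread of the 5 (edgeR adjusted p = 0.330 over all and 0.0176 with 2 groups). CD200, an immunoglobulin-family surface protein, and KCNJ8, a potassium channel subunit, had log2 fold changes of 1.54 and 1.12 (edgeR adjusted p = 0.0280 and 0.0353 with 2 groups). CD200, KCNJ8 and PCBP4 share 11.9%, 10.7% and 9.07% of their exon bases with other genes.

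**Figure D4:**
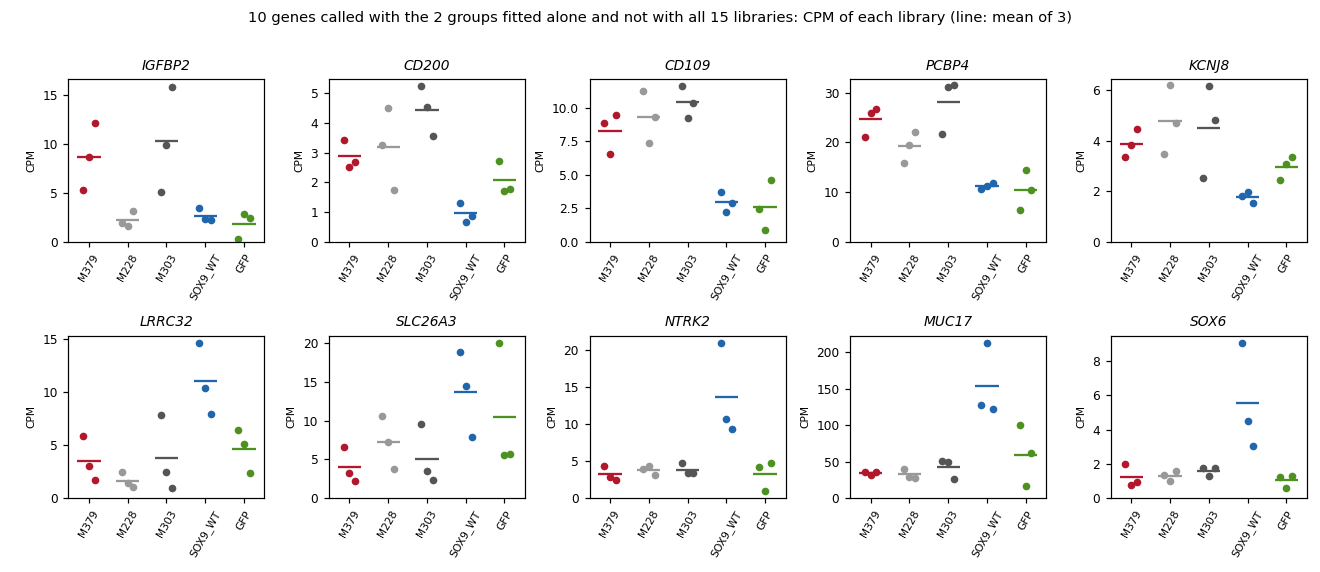
CPM of each library (points) and group mean (lines) for the 10 genes called with the 2 groups fitted alone and not with all 15 libraries, with M379 in red and SOX9_WT in blue and the vertical axis starting at 0. MUC17 lies between 31.8 and 36.5 CPM in M379 and between 122 and 213 CPM in SOX9_WT, and GFP (green) is widely spread for MUC17, SLC26A3 and CD109.

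Gene lists describe the wider programs, and their medians are set beside 0.0044 log2 units, the median of all genes tested. The lists were chosen with earlier results of these data known, so their counts beside the shares of all genes are no test of a list. Some genes are in more than 1 list, as MUC17 is in those of mucins and enterocytes. Mucins had the lowest median of 33 lists, −0.66 over 10 tested of 15 members. Only MUC7 was called, which passed the expression filter through the SOX9_WT libraries alone. At an unadjusted p under 0.05, 6 of 10 were lower, against 2.39% of all genes. Without the GFP group 3 mucins were called lower and with the 2 groups alone 4, against 0.415% and 0.681% of all genes. MUC13, a membrane mucin, was at 1370, 1653 and 1501 CPM in M379 libraries, against 2531, 2496 and 2036 CPM in SOX9_WT libraries, with no overlap and a log2 fold change of −0.64 ± 0.16 (edgeR adjusted p = 0.221). MUC2, the gel-forming mucin of goblet cells, was at 55.2, 105 and 131 CPM in M379 libraries, against 82.3, 248 and 165 CPM in SOX9_WT libraries, and these ranges overlapped.

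The enterocyte list had 24 tested of 30 members, a median of −0.33, none called and 6 lower at an unadjusted p under 0.05, against 2.39% of all genes. Without the GFP group 4 members were called lower and with the 2 groups alone 6, against 0.415% and 0.681% of all genes. KRT20, a keratin of differentiated colonocytes, was at 605, 665 and 652 CPM in M379 libraries, against 954, 1335 and 1004 CPM in SOX9_WT libraries, a log2 fold change of −0.78 ± 0.17 (edgeR adjusted p = 0.152). CEACAM5, the carcinoembryonic antigen, was at 426, 449 and 453 CPM in M379 libraries, against 644, 819 and 640 CPM in SOX9_WT libraries, a log2 fold change of −0.66 ± 0.14 (edgeR adjusted p = 0.102). Both genes were lower in every M379 library than in any SOX9_WT library, and GFP was near M379, at 597, 621 and 703 CPM of KRT20 and 467, 403 and 468 CPM of CEACAM5. The 10 tested of 16 goblet cell genes also had a median of −0.33, with none called and 1 lower at an unadjusted p under 0.05, against 2.39% of all genes. The Paneth cell list had 6 tested of 11 members, a median of 0.07 and none called. Its fold changes were positive for 3 members and negative for 3. REG3A and MPTX1, both of low level, were higher in every M379 library than in any SOX9_WT library. Their log2 fold changes were 1.77 and 0.56. LYZ, the Paneth cell and macrophage lysozyme, was at 1440, 1096 and 1020 CPM in M379 libraries, against 3543, 2866 and 2567 CPM in SOX9_WT libraries, a log2 fold change of −1.34 ± 0.27 (edgeR adjusted p = 0.0936), but 34.7% of its exon bases overlap another gene and its counts are uncertain.

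In the list of NF-kB targets and chemokines, 19 of 21 members were tested, PPBP alone was called, and 6 were lower and 1 higher at an unadjusted p under 0.05, against 2.39% and 2.31% of all genes. Without the GFP group 3 were called lower and with the 2 groups alone 5, against 0.415% and 0.681% of all genes. The 6 lower at an unadjusted p under 0.05 are all CXC chemokines, which attract neutrophils. CXCL1 was at 32.8, 45.6 and 28.5 CPM in M379 libraries, against 55.7, 69.5 and 60.2 CPM in SOX9_WT libraries, a log2 fold change of −0.80 ± 0.22 (edgeR adjusted p = 0.371). CXCL5 was at 0.201, 0.260 and 0.238 CPM in M379 libraries, against 1.07, 0.95 and 0.764 CPM in SOX9_WT libraries, with 17.3% of its exon bases overlapping another gene. That is 3, 4 and 4 reads, against 22, 14 and 8 reads (edgeR adjusted p = 0.168). CXCL5 passed the expression filter through the SOX9_WT libraries alone, so its direction was set by the filter. The list's median was −0.00027, and the NF-kB subunits NFKB1 and NFKB2 and the inhibitor NFKBIA had log2 fold changes of 0.13, 0.42 and 0.09, none of them called. Of 26 chemokine, neuropeptide and adrenergic receptors 13 were tested, and the 3 receptors named above were the ones called, against 0.0619% of all genes called lower. This list was chosen with earlier results of these data known, so the count is no test of receptors as a class.

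WNT targets and feedback genes, 22 tested of 24, had a median of −0.12, with APCDD1 called. With the 2 groups alone 3 were called lower, against 0.681% of all genes. At an unadjusted p under 0.05, 3 were lower and 1 higher, against 2.39% and 2.31% of all genes. TCF7, a DNA-binding partner of beta-catenin, was at 46.6, 47.5 and 50.8 CPM in M379 libraries, against 68.6, 64.9 and 64.0 CPM in SOX9_WT libraries, a log2 fold change of −0.45 ± 0.11 (edgeR adjusted p = 0.216). CD44, a hyaluronan receptor, was at 544, 639 and 729 CPM in M379 libraries, against 873, 996 and 1032 CPM in SOX9_WT libraries, a log2 fold change of −0.60 ± 0.20 (edgeR adjusted p = 0.653). In both genes the groups were apart. The 18 tested of 20 crypt stem cell genes had a median of −0.14 with none called, or 2 lower with the 2 groups alone, against 0.681% of all genes. LGR5, the receptor that marks crypt stem cells, was at 48.3, 35.3 and 44.3 CPM in M379 libraries, against 68.1, 54.1 and 61.8 CPM in SOX9_WT libraries, a log2 fold change of −0.52 ± 0.26 (edgeR adjusted p = 0.979). PROM1, at 60.7, 45.7 and 47.7 CPM in M379 libraries and 120, 77.6 and 62.8 CPM in SOX9_WT libraries, had a log2 fold change of −0.76 ± 0.29 (edgeR adjusted p = 0.818).

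BMP and TGF-beta genes, 18 tested of 22, had a median of −0.13 and none called. GREM1, a secreted BMP antagonist, was at 94.2, 118 and 100 CPM in M379 libraries, against 159, 186 and 175 CPM in SOX9_WT libraries, a log2 fold change of −0.74 ± 0.22 (edgeR adjusted p = 0.507). BMP2, a ligand of the same pathway, was at 3.69, 4.87 and 3.45 CPM in M379 libraries, against 6.42, 5.90 and 5.73 CPM in SOX9_WT libraries. Neither overlapped between the groups. Of 17 cartilage genes 6 were tested and none was called, with SOX6 and COL9A3 the ones under an unadjusted p of 0.05, in opposite directions. The 6 tested of the 13 other SOX factors had none called and a median of −0.07.

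Lists above 0 held small differences. The integrated stress response raises amino acid synthesis and transport genes when translation is impaired. Its list had 20 tested of 21 members, a median of 0.25 and none called. At an unadjusted p under 0.05, 4 were higher and 1 lower, against 2.31% and 2.39% of all genes. For M379 against GFP the list's median was −0.00082. PHGDH, the first enzyme of serine synthesis, was at 9.06, 8.19 and 7.91 CPM in M379 libraries, against 4.52, 3.33 and 4.59 CPM in SOX9_WT libraries, a log2 fold change of 1.02 ± 0.25 (edgeR adjusted p = 0.216). TRIB3, a pseudokinase induced by ATF4, was at 51.8, 49.4 and 47.9 CPM in M379 libraries, against 38.2, 29.6 and 38.8 CPM in SOX9_WT libraries. In GFP libraries PHGDH was at 7.603, 12.95 and 8.076 CPM and TRIB3 at 44.1, 56.65 and 46.81 CPM, both overlapping M379. The DNA replication list, with all 31 members tested, had a median of 0.16 (0.045 for M379 against GFP) and none called. It had 3 higher at an unadjusted p under 0.05, POLD1, MCM5 and LIG1, against 2.31% of all genes. Its M379 libraries lay above all SOX9_WT libraries for 9 genes and below them for 0, against 9.75% and 9.48% of all genes. MKI67, a proliferation marker, was at 620, 504 and 700 CPM in M379 libraries, against 671, 597 and 613 CPM in SOX9_WT libraries, and these overlapped. The 43 ribosomal protein genes had a median of 0.14 (−0.29 for M379 against GFP) and none called. The −0.29 leans on GFP library 2, with 5.05% of its reads in these genes. GFP libraries 1 and 3 had 3.34% and 2.84%, and the M379 libraries between 3.07% and 3.19%. For 19 of them the M379 libraries lay above all SOX9_WT libraries, against 9.75% of all genes. Their counts are uncertain because near-identical pseudogenes exist. The 13 genes of the mitochondrial genome had a median of −0.22 and none called.

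HOX genes, 21 tested of 33, had the highest median, 0.29 (0.04 for M379 against GFP), with none called. At an unadjusted p under 0.05, 2 were higher, against 2.31% of all genes. Both overlap other genes: HOXA11 shares 27.2% of its exon bases and HOXA3 19.8%. The other lists with a called member were each called through 1 gene: CALD1 for actin and contractile genes, AP1M1 for the AP-1 and AP-2 adaptors, CHST6 for sulfotransferases, HGD for tyrosine breakdown, CLGN for chaperones of the endoplasmic reticulum and PLAT for the plasminogen system. The medians of those 6 lists lay between −0.01 and 0.24. Altogether 10 of the 33 lists had a called member and 23 had none. Without the GFP group 18 lists had a called member, and with the 2 groups alone 22. The genes called in these 3 fits numbered 20, 100 and 165. The lists were chosen with earlier results of these data known, so the number with a called member tests nothing. The Notch, YAP, cholesterol, mitosis and DNA replication lists had none in any of these 3 fits. CDX2, an intestinal transcription factor, was at 382, 264 and 289 CPM in M379 libraries, against 365, 282 and 274 CPM in SOX9_WT libraries.

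**Figure D5:**
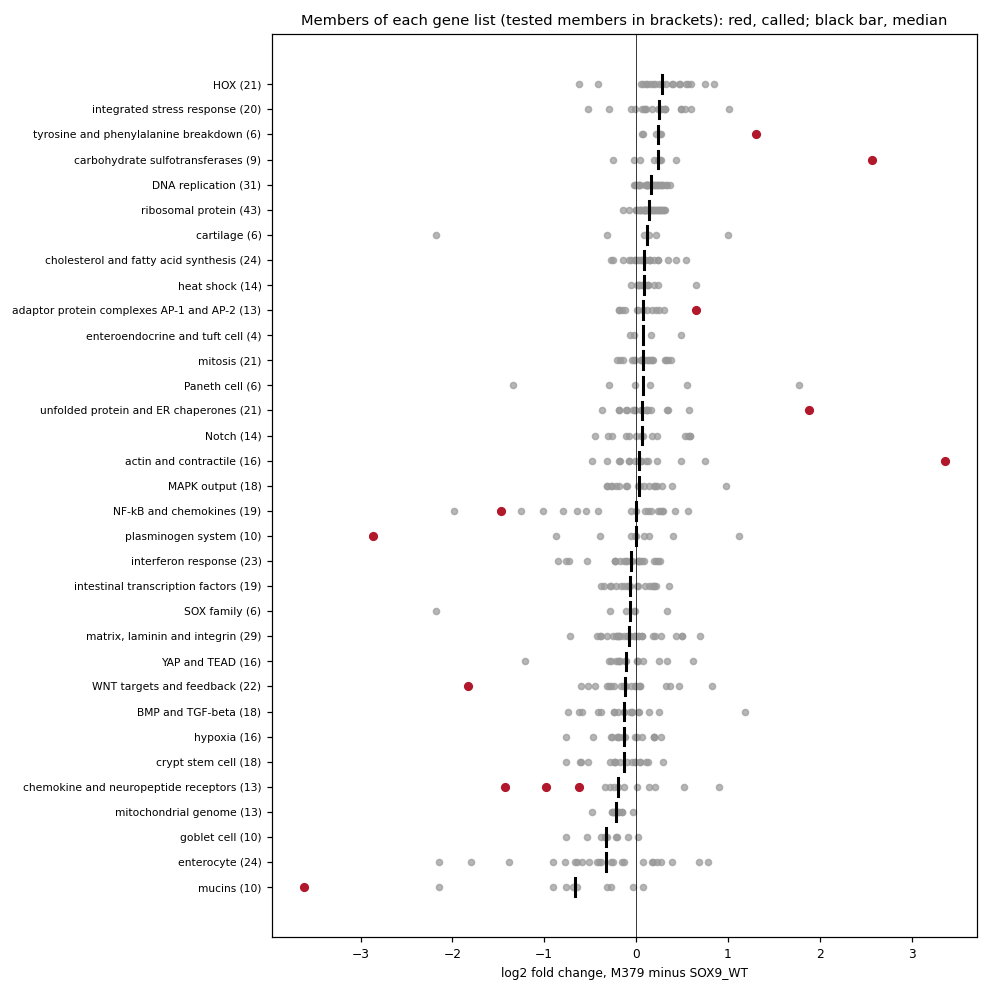
Each row is a gene list with its number of tested members, each point a member's log2 fold change of M379 minus SOX9_WT, red where called, and the black bar the list's median. Medians run from −0.66 for mucins to 0.29 for HOX genes, and 23 of 33 lists hold no red point (calls over all 15 libraries).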

How the data were processed

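Counts per gene were deposited by the authors for 15 libraries of doxycycline-induced HT115 cells. Per the submitters' processing notes the aligner was STAR 2.7.0a and the build hg38. Counting was by featureCounts 2.0.1 on Ensembl 101, per the file headers. That command has no strand option, so overlapping genes on opposite strands cannot be told apart, and no paired-end option, so the 2 mates of a pair may each count. A deposited normalized table was not used: it has no M379 column, and 3 of its columns match no sample label.

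Groups follow the labels. Genes passing filterByExpr were scaled by TMM and fitted with edgeR 4.0.16 (R 4.3.3) quasi-likelihood methods, 1 mean per group over all 15 libraries with 10 residual degrees of freedom, and tested two-sided with Benjamini-Hochberg adjustment over 16160 genes. An adjusted p under 0.05 is a call. Values are TMM-scaled CPM per library, and log2 fold changes carry ± their standard error. The steps were tested on simulated data. Alternatives were DESeq2 1.42.0, limma 3.58.1 (voom with library quality weights), other scaling, filters, library subsets and a replicate block. Libraries of 1 group always differed beyond sampling noise.

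The named genes are SOX9, all called genes, the 5 highest and 5 lowest from the fit of the 2 groups alone, up to 3 members per list by unadjusted p, KRT20, LGR5, PROM1, MKI67 and CDX2, and members of lists described as a whole. The genes called against GFP or M228 were named after their values were seen. One gene called against M228 is not reported here. The members and the gene lists were chosen with earlier results of these data known. Equal replicate numbers pair libraries where every pair's deviations correlate above 0.1. This held for M379 against GFP (0.286 to 0.389), M228 (0.187 to 0.476) and M303 (0.376 to 0.580), and the labels name no shared day. It did not hold against SOX9_WT.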

Additional observations from a re-analysis of the deposited data

How the results depend on the processing

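Counts of called genes moved most. For M379 against SOX9_WT the count was 137 with no filter on low counts, 71 with DESeq2, 707 with limma-voom and library quality weights (used in each limma-voom value), 1 with libraries 2 and 3 of every group, 100 without the GFP group, 165 with the 2 groups alone and 89 without GFP replicate 2, an alternative chosen after seeing the data. It ranged from 1 to 5 when 1 library of the pair was left out. It was 19 with DESeq2 size factors and 20 with the robust fit. For M379 against GFP it was 3 with DESeq2 size factors, 74 with no filter, 50 with DESeq2, 24 with limma-voom, 17 with the replicate block, 3 with libraries 2 and 3, and 1 with the 2 groups alone with and without the block. It ranged from 2 to 12 with 1 library left out. For M379 against M228 it was 48 with no filter, 23 with DESeq2, 34 with limma-voom, 25 with the replicate block, 1 with libraries 2 and 3, 11 without the GFP group and 1013 with the 2 groups and the block. It ranged from 0 to 10 with 1 library left out. For M379 against M303 it was 5 with no filter, 1 with limma-voom, 1 without the GFP group, 25 with the 2 groups and the block, and 0 to 1 with 1 library left out. The cause was not tested.

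With the replicate number as a block M379 against SOX9_WT had 106 calls, or 624 with the 2 groups alone. The same-numbered deviations correlated at 0.243, 0.0696 and 0.225, and every library correlated best with its own number, a hint from the data and not from the design.

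Genes near 0 changed sign: CDX2 was at −0.016 log2 units with libraries 2 and 3 and ranged from −0.15 to 0.16 with 1 library left out, and MKI67 was at 0.025 with limma-voom and ranged from −0.16 to 0.073. Depth limits MUC7, PLAT and CXCL5, which had at most 4 reads in an M379 library.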
